A study of Mus musculus with 12 samples.

Results

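Glucuronidation and sulfation are the conjugation routes by which the liver makes acetaminophen (APAP), bilirubin, bile acids and steroids soluble for excretion. The genes described here are 10 of the 24187 genes counted in mouse liver. They include 5 UDP-glucuronosyltransferases (Ugt2b1, Ugt2b5, Ugt2b34, Ugt2b35 and Ugt2b36) and 2 related transferases that use other UDP-sugars (Ugt3a1 and Ugt3a2). The others are 2 cytosolic sulfotransferases (Sult1a1 and Sult1b1) and Ugdh, the dehydrogenase that makes UDP-glucuronic acid. The list is headed glucuronidation and sulfation enzymes. The 10 genes were chosen by name, with earlier results of these data known, and all 10 were counted in every liver and passed the filter on low counts. Bulk RNA sequencing was performed on frozen liver of 12 mice aged 10 to 12 weeks, whose strain is given both as C57BL/6 J and as C57BL6/JOlaHsd. The 3 control mice were untreated, 5 mice received APAP and PBS vehicle, and 4 mice received APAP and human alternatively activated macrophages (hAAMs), which are monocyte-derived cells polarized in culture. By the sample labels both injured groups received 350 mg/kg APAP, while the legend over their results is headed as a severe model, which is described with 500 mg/kg. In that model mice were fasted for 12 h, vehicle or 1000000 hAAMs followed 16 h after APAP, and livers were taken at 32 h or 36 h, as the sources differ. None of these times is given for the sequenced livers on their own, nor whether the control mice were fasted.

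UDP-glucuronosyltransferases sit in the membrane of the endoplasmic reticulum and transfer glucuronic acid from UDP-glucuronic acid to hydroxyl, carboxyl or amine groups. Ugt2b enzymes are abundant in hepatocytes and act on steroids, bile acids and many drugs, whereas the Ugt3a enzymes use other UDP-sugars as donors. Sulfotransferases act in the cytosol and take sulfate from the donor PAPS, with Sult1a1 acting on small phenols and Sult1b1 on phenols and thyroid hormones. At low doses APAP is cleared mainly as its glucuronide and its sulfate, and the part oxidized by cytochromes P450, mainly in pericentral hepatocytes, gives the reactive product that injures the liver.

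Of the members, 6 lie close together on chromosome 5 of the mouse assembly GRCm38. In order these were Ugt2b34 (chr5:86889767-86906937), Ugt2b1 (chr5:86916638-86926530), Ugt2b35 (chr5:87000860-87013275), Ugt2b36 (chr5:87065927-87092555), Ugt2b5 (chr5:87124960-87140318) and Sult1b1 (chr5:87513339-87538195). The stretch from Ugt2b34 to Sult1e1 spans 701.8 kb and holds 14 protein-coding genes and 15 pseudogenes. Ugdh lies apart on the same chromosome (chr5:65413221-65435949), Ugt3a1 (chr15:9276888-9315032) and Ugt3a2 (chr15:9335550-9370955) are neighbors, and Sult1a1 stands alone (chr7:126672865-126676432). The coding sequences of Ugt2b5, Ugt2b35 and Ugt2b36 were 87.7% to 88.4% identical to each other, while Ugt2b1 and Ugt2b34 were 71.4% to 74.5% identical to every other Ugt2b member and to each other. Ugt3a1 and Ugt3a2 were 93.2% identical. Of the 75-base stretches of the Ugt2b5 coding sequence, 35.8% occur unchanged in another gene, most often Ugt2b38, so the counts of Ugt2b5 and Ugt2b38 may have exchanged reads. The corresponding share was 6.5% for Sult1a1, 5.5% for Ugdh, 2.4% for Ugt2b34, 2.3% for Ugt3a1 and Ugt3a2, and 0 for Ugt2b1, Ugt2b35, Ugt2b36 and Sult1b1.

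The sequences directly before the start sites of the 5 Ugt2b members are shown because their promoters hold a common element. These are related genes that lie close together, so their matches are not 5 separate observations. Whether the element has a part in their changes was not tested. HNF1 factors are hepatocyte transcription factors that bind a palindrome, searched here on both strands as GTTANNNNTTAAC, a pattern that was chosen after the members' promoters had been read. In RefSeq promoters of GRCm38.p6, from 250 bases before to 50 bases after each start, this pattern occurred in 62 of 32851 promoters (0.189%). Those 62 included the promoters of all 5 Ugt2b members, of Ugt3a1, and of Ugt2b37 and Ugt2b38 among 48 promoter entries of other genes of the pathways. The pattern was not found in the windows of Sult1a1, Sult1b1 or Ugdh. Ugt3a2 was not matched. The 150 bases before each start follow, 5′ to 3′ on the strand of the gene, with the palindrome in capitals: Ugt2b1 (minus strand, chr5:86926504-86926653), Ugt2b5 (minus, chr5:87140341-87140490), Ugt2b34 (minus, chr5:86906938-86907087), Ugt2b35 (plus, chr5:87000710-87000859) and Ugt2b36 (minus, chr5:87092556-87092705).
Ugt2b1: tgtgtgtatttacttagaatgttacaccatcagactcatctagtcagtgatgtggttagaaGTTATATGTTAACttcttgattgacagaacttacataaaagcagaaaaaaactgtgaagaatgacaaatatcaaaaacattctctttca
Ugt2b5: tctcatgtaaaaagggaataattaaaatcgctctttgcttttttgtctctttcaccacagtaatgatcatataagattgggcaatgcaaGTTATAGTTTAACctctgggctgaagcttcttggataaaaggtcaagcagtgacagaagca
Ugt2b34: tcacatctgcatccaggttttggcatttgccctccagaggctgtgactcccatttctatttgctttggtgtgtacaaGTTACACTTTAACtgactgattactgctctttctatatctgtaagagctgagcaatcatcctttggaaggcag
Ugt2b35: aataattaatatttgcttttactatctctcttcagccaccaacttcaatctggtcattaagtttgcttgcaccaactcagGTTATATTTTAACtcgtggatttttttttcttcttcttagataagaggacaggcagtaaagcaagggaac
Ugt2b36: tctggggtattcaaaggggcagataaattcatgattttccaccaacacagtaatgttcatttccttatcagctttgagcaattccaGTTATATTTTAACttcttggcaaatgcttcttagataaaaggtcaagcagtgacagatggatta
The palindrome began 89 bases before the start of Ugt2b1, 61 before Ugt2b5, 73 before Ugt2b34, 70 before Ugt2b35 and 64 before Ugt2b36. The TCF/LEF pattern CTTTGAT, which 3.73% of all promoters hold, was found in no member's window. Ugdh held 3 matches to the aryl hydrocarbon receptor core GCGTG, a pattern present in 32.4% of promoters, and 2 to the NRF2 element TGACNNNGC, present in 12.4%, both searched on both strands. A match of each began at the same base, 94 before the start. One of the windows of Sult1b1 held 1 match to GCGTG. These matches describe letters in a window and carry no information on binding in these livers.

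The libraries held 47391650 to 74056505 counts. All 12 livers had the expression of males, with 10 to 149 Xist counts and 3064 to 4281 Ddx3y counts. Levels are given as CPM, the share of a library's counts in parts of 1000000, with TMM scaling. The TMM factors of control livers (0.832 to 0.859) were below those of vehicle (1.016 to 1.129) and hAAM livers (0.933 to 1.14). If libraries were scaled by their size alone, genes would on median rise by 0.36 (log2) in vehicle and 0.32 in hAAM livers against control, so every change below is relative to that of most genes. The counts of vehicle replicate 3 and hAAM replicate 4 had a spread of 1.187 times the counting noise although their labels put them in different groups, where the 35 remaining pairs of injured livers had spreads of 2.613 to 6.938 times. Both were kept as labeled, and results that depend on them are given without both. The summed level of 9 hepatocyte markers overlapped between the groups (78800 to 108000, 77700 to 111000 and 81700 to 115000 CPM in control, vehicle and hAAM livers). Albumin made up 45.3% to 63.1% of it, and among the 9 markers Ahsg was called higher and Fgb lower in both injured groups, and Serpinc1 lower in vehicle livers. The labels name no batches.

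In vehicle livers, 8 of the 10 members fell against control and none rose, by edgeR's quasi-likelihood test with a false discovery rate (FDR) under 0.05 over all 22581 genes tested, of which 14.8% were called lower. The median log2 fold change of the members was -0.79, against 0.01 for all genes. The vehicle livers lay below all control livers for 6 members, as for 17.3% of all genes. Every transferase of the Ugt2b and Ugt3a families fell, as did Ugdh, while Sult1a1 and Sult1b1 were not called. In hAAM livers 3 of 10 members fell against the same control livers (Ugt2b1, Ugt2b5 and Ugt3a1), none rose, 9.96% of all genes were called lower, and the median of the members was -0.48 against 0.02 for all genes. The hAAM livers lay below all control livers for 4 members, as for 14.2% of all genes. Between hAAM and vehicle livers no member was called. The vehicle count was 4 when libraries were scaled by size alone and 5 without control replicate 1, and the hAAM count was 1 without control replicate 1 or hAAM replicate 2. Of all genes, 3339 of 22581 were called lower in vehicle livers by the test above. With size alone these were 1110 of 22581, and without control replicate 1 they were 2429 of 23090. In hAAM livers 2248 of 22581 were called lower by the test above. These were 1511 of 23090 without control replicate 1 and 1446 of 22466 without hAAM replicate 2. Because both injured groups were compared with the same 3 control livers, the values of these comparisons are not independent of each other.

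**Figure D1:**
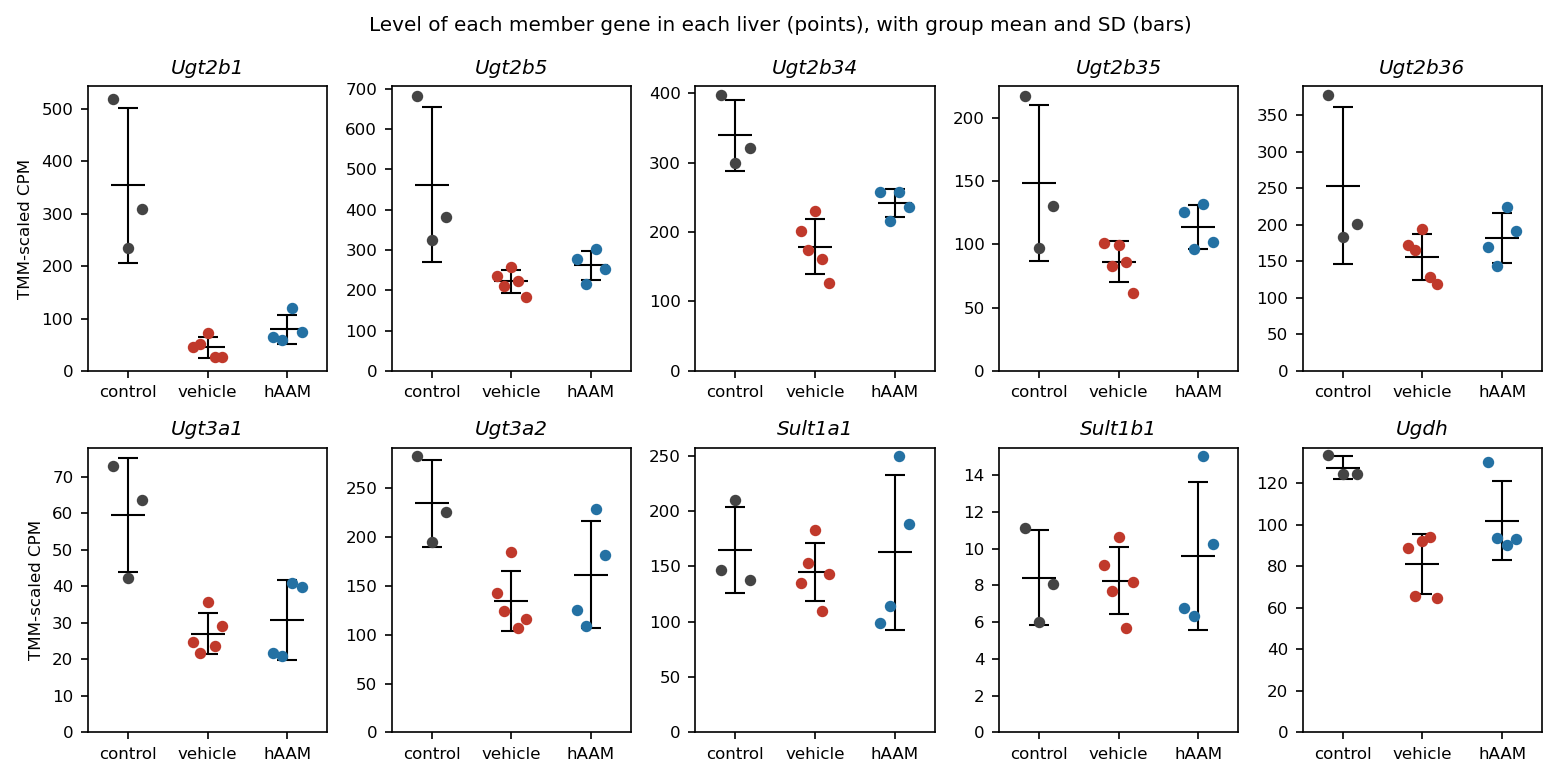
Level of each of the 10 members in each liver, in TMM-scaled CPM, for 3 control, 5 vehicle and 4 hAAM livers. Points are livers and bars are the group mean and SD. The vehicle and hAAM points of Ugt2b1 reach at most 120.5 CPM and the control points start at 234.6 CPM, whereas the groups overlap for Sult1a1 and Sult1b1.

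Ugt2b1, which conjugates steroids and drugs, had the largest fall of the 10 members. Its level was 519.5, 234.6 and 309.0 CPM in the 3 control livers, 46.6, 51.9, 72.0, 26.6 and 26.5 CPM in vehicle livers, and 64.6, 58.6, 120.5 and 74.4 CPM in hAAM livers. All 9 injured livers lay below all control livers. The mean was 354.4 ± 147.8 CPM (SD, n = 3) in control, 44.7 ± 19.1 (n = 5) in vehicle and 79.5 ± 28.1 (n = 4) in hAAM livers. By edgeR the level in vehicle livers was 7.93-fold lower than in control (log2 fold change -2.99, SE 0.362, FDR 2.66e-04), and in hAAM livers it was 4.46-fold lower (-2.16, SE 0.383, FDR 0.00375). The 95% interval of the vehicle change, -3.77 to -2.20, lay wholly below the intervals of the other 9 members, of which the lowest bound was -1.69. Without vehicle replicate 3 and hAAM replicate 4 the log2 changes were -3.22 and -2.12. The call held when any single liver was left out, with log2 changes from -3.23 to -2.60 in vehicle and from -2.43 to -1.77 in hAAM livers.

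Ugt2b5, the member with the most transcript per length in control liver, was at 681.9, 323.8 and 381.2 CPM in control livers. It was at 234.7, 210.6, 258.2, 223.1 and 184.0 CPM in vehicle livers and at 277.6, 215.9, 301.9 and 252.3 CPM in hAAM livers. The injured livers lay below the control livers without overlap, and control replicate 1 stood above the other 2 control livers. The fall was 2.08-fold in vehicle livers (log2 -1.06, SE 0.207, edgeR FDR 0.00336) and 1.76-fold in hAAM livers (-0.82, SE 0.220, FDR 0.0224). Without control replicate 1 the vehicle change was -0.67, still called. The hAAM call was lost without control replicate 1 (log2 change -0.43, FDR 0.0941), without hAAM replicate 2 (-0.74, FDR 0.063) and without both near-identical livers (-0.80, FDR 0.0503). It was also lost with library size alone (-0.53, FDR 0.0663) and when only control and hAAM livers were fitted (-0.81, FDR 0.0702).

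Ugt2b34, at 396.8, 299.4 and 321.5 CPM in control livers, was at 201.6, 174.6, 230.2, 161.5 and 126.8 CPM in vehicle livers. In hAAM livers it was at 257.7, 215.8, 258.1 and 235.4 CPM, so that both injured groups lay below the control livers and 3 of 4 hAAM livers lay above all vehicle livers. It fell 1.90-fold in vehicle livers (log2 -0.92, SE 0.165, edgeR FDR 0.00212). In hAAM livers the log2 change was -0.49 (95% interval -0.87 to -0.11), with an FDR of 0.0661 by edgeR and 0.0411 by DESeq2. It was called by edgeR when vehicle replicate 3 (-0.49, FDR 0.0434) or vehicle replicate 5 (-0.49, FDR 0.0339) was left out, and when only control and hAAM livers were fitted (-0.48, FDR 0.0491).

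Ugt2b35 and Ugt2b36, the close relatives of Ugt2b5, overlapped between control and injured livers. Ugt2b35 was at 217.2, 97.4 and 130.5 CPM in control, 101.3, 83.2, 99.4, 86.1 and 61.5 CPM in vehicle and 125.4, 96.2, 131.8 and 101.6 CPM in hAAM livers. Ugt2b36 was at 377.0, 183.2 and 200.7 CPM in control, 171.9, 164.8, 194.4, 128.5 and 118.7 CPM in vehicle and 169.2, 143.7, 223.7 and 191.3 CPM in hAAM livers. For both genes control replicate 1 was the highest of all 12 livers. Ugt2b35 fell 1.72-fold in vehicle livers (log2 -0.78, SE 0.228, edgeR FDR 0.0230), and the call was lost without control replicate 1 (-0.40, FDR 0.16). Ugt2b36 fell 1.63-fold (log2 -0.70, SE 0.237, edgeR FDR 0.0417), the weakest call among the members. It was lost when any of 7 single livers was left out (control replicate 1, vehicle replicates 1, 2, 4 and 5, hAAM replicates 1 and 4), with log2 changes of -0.74 to -0.30 and FDR values of 0.0519 to 0.305, and when only control and vehicle livers were fitted (-0.70, FDR 0.0587). In hAAM livers the log2 changes against control were -0.38 (interval -0.91 to 0.14) for Ugt2b35 and -0.48 (interval -1.02 to 0.07) for Ugt2b36, and neither was called.

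**Figure D2:**
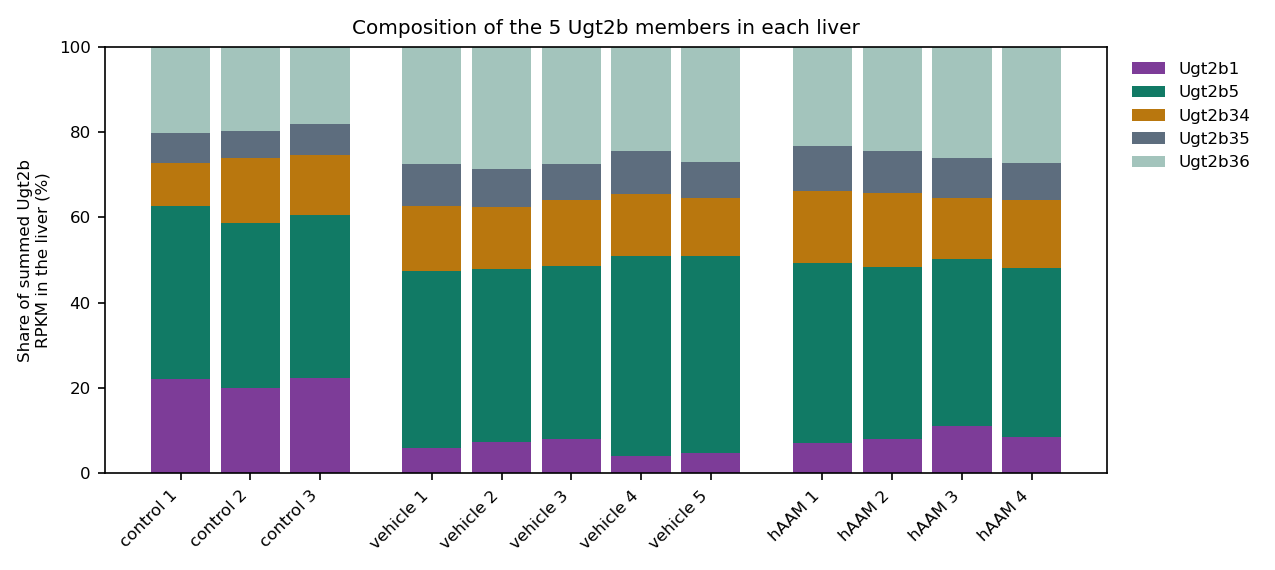
Share of each of the 5 Ugt2b members in their summed level per length (RPKM) in each liver, in percent, with livers along the x axis by group and replicate. Ugt2b1 takes 20.1% to 22.4% of the sum in control livers, 4.04% to 8.13% in vehicle livers and 7.10% to 11.2% in hAAM livers.

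Among the 5 Ugt2b members the composition of the transcripts changed along with their sum. The summed level of the 5 members was 633 ± 243 RPKM (CPM per kilobase of exon, SD, n = 3) in control, 280 ± 49.0 (n = 5) in vehicle and 350 ± 53.2 (n = 4) in hAAM livers. Ugt2b38 (mean 48.6 RPKM in control livers) and Ugt2b37 (1.74 RPKM) are not part of this sum. Reads that Ugt2b5 and Ugt2b38 may have exchanged enter the values of Ugt2b5. Ugt2b1 made up 21.6% ± 1.27 of that sum in control livers, 6.03% ± 1.69 in vehicle livers and 8.66% ± 1.78 in hAAM livers. This share of Ugt2b1 does not depend on the scaling between libraries, and it differed little among the 3 control livers although their sums ran from 452.9 to 908.7 RPKM. The share of Ugt2b36 was 19.3% ± 1.03, 27.0% ± 1.58 and 25.2% ± 1.75 in control, vehicle and hAAM livers, and that of Ugt2b35 was 6.92% ± 0.458, 9.18% ± 0.716 and 9.68% ± 0.718. For both, the injured livers lay above all control livers. Shares sum to 100%, so the lower share of Ugt2b1 raises the others. Of the sum of the 4 other genes, Ugt2b5 made up 49.8% ± 1.89 in control, 45.8% ± 2.58 in vehicle and 44.1% ± 0.914 in hAAM livers, Ugt2b36 24.7% ± 1.26, 28.7% ± 2.08 and 27.6% ± 2.26, and Ugt2b35 8.84% ± 0.712, 9.76% ± 0.688 and 10.6% ± 0.699. On that base the vehicle livers overlapped control livers for each of the 4 genes, while hAAM livers lay below all control livers for Ugt2b5 and above them for Ugt2b35. The share of Ugt2b5 was 39.1% ± 1.16 in control, 43.1% ± 3.14 in vehicle and 40.3% ± 1.37 in hAAM livers, and that of Ugt2b34 was 13.1% ± 2.69, 14.7% ± 0.716 and 16.1% ± 1.32. These shares are given as a description.

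Of the Ugt3a genes, Ugt3a1 uses UDP-N-acetylglucosamine and Ugt3a2 uses UDP-glucose and UDP-xylose in the human enzymes. Ugt3a1 was at 72.8, 42.3 and 63.7 CPM in control livers, 24.6, 21.7, 35.8, 23.7 and 29.1 CPM in vehicle livers and 21.9, 20.9, 40.9 and 39.8 CPM in hAAM livers. Every injured liver lay below every control liver. It fell 2.21-fold in vehicle livers (log2 -1.14, SE 0.253, edgeR FDR 0.00623) and 1.93-fold in hAAM livers (-0.95, SE 0.268, FDR 0.0276). The hAAM call was lost when control replicate 1 or 3 or hAAM replicate 1 or 2 was left out (log2 changes -0.90 to -0.78, FDR 0.0706 to 0.104), and when only control and hAAM livers were fitted (-0.94, FDR 0.068). Ugt3a2 was at 283.0, 195.4 and 225.5 CPM in control livers and at 142.4, 124.9, 185.0, 107.3 and 116.0 CPM in vehicle livers, without overlap. In hAAM livers it was at 125.6, 109.5, 229.0 and 181.9 CPM, where replicate 3 reached the control range. Ugt3a2 fell 1.74-fold in vehicle livers (log2 -0.80, SE 0.238, edgeR FDR 0.0252). That call was lost without control replicate 1 or 3 or vehicle replicate 2, 4 or 5 (log2 changes -0.82 to -0.64, FDR 0.0519 to 0.11). In hAAM livers the log2 change was -0.54 (interval -1.09 to 0.01), not called, and -0.76 with an FDR of 0.0371 without hAAM replicate 3.

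Ugdh, which oxidizes UDP-glucose to UDP-glucuronic acid and so makes the sugar donor of the Ugt2b enzymes, had the smallest SD relative to its mean among the members in control livers (127.5 ± 5.35 CPM, n = 3). It was at 133.7, 124.5 and 124.3 CPM in control, 89.0, 65.7, 92.2, 93.9 and 64.6 CPM in vehicle and 130.2, 93.6, 90.3 and 93.2 CPM in hAAM livers. All vehicle livers lay below all control livers, and of the hAAM livers only replicate 1 reached the control range. Ugdh fell 1.57-fold in vehicle livers (log2 -0.65, SE 0.153, edgeR FDR 0.00837), a call that held without any single liver. With library size alone the calls of Ugdh (-0.30, FDR 0.172), Ugt2b35 (-0.44, FDR 0.122), Ugt2b36 (-0.36, FDR 0.18) and Ugt3a2 (-0.46, FDR 0.0757) in vehicle livers were lost by edgeR. In hAAM livers the log2 change was -0.32 (interval -0.68 to 0.03, FDR 0.175).

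The sulfotransferases were the only members not called in either injured group. Sult1a1 was at 146.6, 209.6 and 138.1 CPM in control, 134.7, 153.1, 182.5, 110.0 and 143.4 CPM in vehicle and 98.5, 114.1, 249.5 and 188.4 CPM in hAAM livers. The hAAM livers spanned the whole range of the other groups and beyond. Its log2 changes against control were -0.19 (interval -0.78 to 0.41, edgeR FDR 0.643) in vehicle and -0.02 (interval -0.65 to 0.61, FDR 0.971) in hAAM livers. Sult1b1, expressed at a low level, was at 11.1, 6.01 and 8.10 CPM in control, 9.14, 7.69, 10.6, 5.71 and 8.18 CPM in vehicle and 6.79, 6.33, 15.0 and 10.3 CPM in hAAM livers, with full overlap. Its log2 changes were -0.03 (interval -0.66 to 0.61, FDR 0.958) and 0.19 (interval -0.47 to 0.86, FDR 0.693). In vehicle livers both intervals include a fall as large as that of Ugdh, so a fall of that size could have gone undetected with these mice. The sign of the change of both genes, in each injured group, turned when single livers were left out, and, with library size alone, which shifted the changes of all genes upward, that of Sult1a1 in both groups and of Sult1b1 in vehicle livers.

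**Figure D3:**
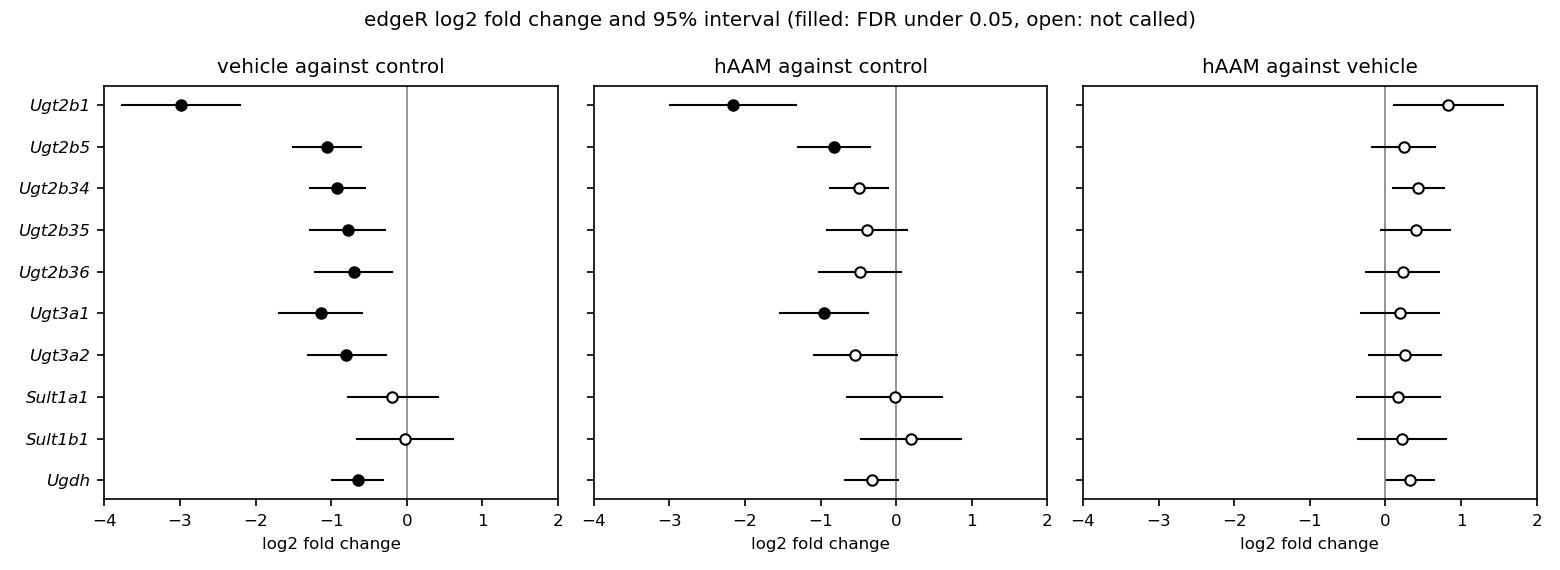
Log2 fold change from edgeR with its 95% interval for the 10 members, for vehicle against control, hAAM against control and hAAM against vehicle. Filled points have an FDR under 0.05 and open points do not. In vehicle livers 8 members are filled, in hAAM livers 3, and in hAAM against vehicle livers none, with all 10 points to the right of 0.

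The comparison of hAAM with vehicle livers asks directly whether the cells altered these genes after injury. No member was called by edgeR or by DESeq2, with edgeR FDR values of 0.966 to 0.99, and edgeR called 0 (0.0%) of the 22581 genes, of which 1133 (5.02%) had an unadjusted p under 0.05. DESeq2 called 1 gene of all. The fitted levels of all 10 members were higher in hAAM livers, with a median log2 change of 0.25, while 50.9% of all genes had a positive change. Without hAAM replicate 3 the median was 0.14, and 8 of 10 were positive. The members are related genes measured in the same livers, so their common sign is not evidence from 10 separate observations. The unadjusted edgeR p was under 0.05 for 3 members: Ugt2b1 (1.78-fold, log2 0.83, interval 0.11 to 1.55), Ugt2b34 (1.35-fold, 0.43, interval 0.10 to 0.77) and Ugdh (1.26-fold, 0.33, interval 0.02 to 0.64). Without vehicle replicate 5 only 1 member had such a p, and without vehicle replicate 2 or 4 or hAAM replicate 1 or 3 there were 2, while without control replicate 1 or 2 there were 4. For the other 7 the log2 change lay between 0.17 and 0.40 with intervals that include 0. Without vehicle replicate 3 and hAAM replicate 4, the near-identical libraries, the log2 changes were 1.10 for Ugt2b1, 0.55 for Ugt2b34 and 0.41 for Ugdh, with edgeR FDR values of 0.629, 0.59 and 0.697. Without hAAM replicate 3 the sign turned for Sult1a1 (-0.11) and Sult1b1 (-0.08). That 8 members were called in vehicle livers and 3 in hAAM livers therefore does not show that the groups differed, since their difference was tested here and not called.

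Transcript levels per length ordered the members differently in control and injured livers. In control livers Ugt2b5 led with 248.8 RPKM, followed by Ugt2b1 (137.7), Ugt2b36 (123.2), Sult1a1 (109.3), Ugt2b34 (78.7), Ugt3a2 (75.6), Ugt2b35 (44.2), Ugt3a1 (22.3), Ugdh (18.9) and Sult1b1 (3.03). Neighbors in that order overlapped between livers except Ugt2b35 with Ugt3a1 and Ugdh with Sult1b1. In vehicle livers Ugt2b5 still led with 119.5 RPKM, while Ugt2b1 stood in place 7 with 17.4 RPKM.

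Likeness across livers was measured as Pearson's r of log2 CPM. Over the 12 livers Ugt2b1 was most like Ugt2b34 among the members (r = 0.94), and Ugt3a1 and Ugt3a2 were most like each other (0.93). Likeness did not follow the families throughout: Ugt2b36 was nearly as like Ugt3a2 (0.89) as it was Ugt2b5 (0.92), Sult1a1 was most like Sult1b1 at only 0.63, and the member most like Sult1b1 was Ugt3a2 (0.65). Within the 9 injured livers alone these last 2 values were 0.93 and 0.95. Outside the members, the genes most like Ugt2b5 were Ugt2b38 (r = 0.996), the class I histocompatibility gene H2-Q7 (0.981) and Gm14023 (0.976), over 12 livers that fall into injured and uninjured clusters. Within the 9 injured livers alone these values were 0.986, 0.949 and 0.861. They are given as a description, and the reads that Ugt2b5 and Ugt2b38 may share enter the first of them.

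**Figure D4:**
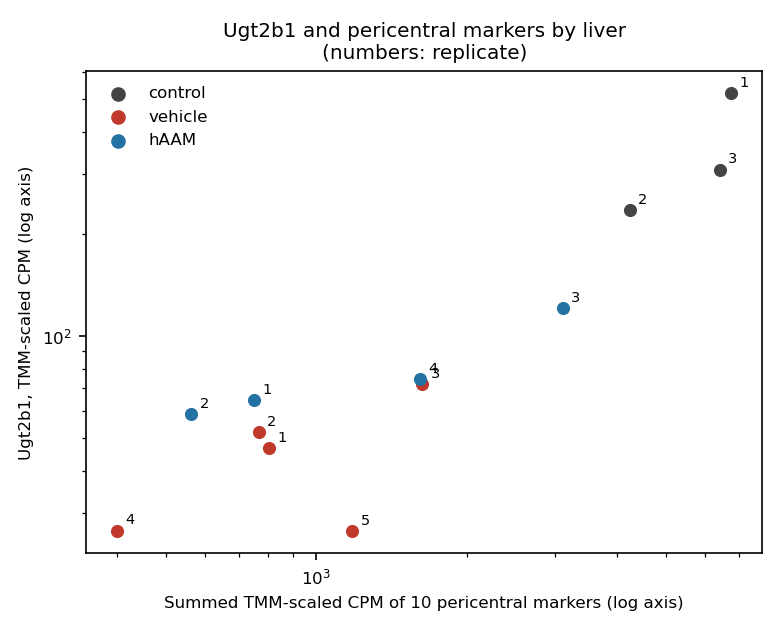
Ugt2b1 level (TMM-scaled CPM, log axis) against the summed level of 10 pericentral hepatocyte markers (same unit, log axis) in each of the 12 livers, numbered by replicate. Control livers lie at the top right, and among hAAM livers replicate 3 is highest on both axes.

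Some markers of hepatocyte zones and of other cells also differed between the groups. The summed level of 10 pericentral markers, among them Glul and Cyp2e1, was 4240 to 6760 CPM in control, 400 to 1630 CPM in vehicle and 562 to 3110 CPM in hAAM livers, and 9 of 10 markers fell in vehicle and 7 of 10 in hAAM livers. The summed level of 10 periportal markers overlapped (8720 to 11000, 6510 to 12400 and 6980 to 16800 CPM), with 1 called lower and 1 higher in vehicle livers. The 9 monocyte and macrophage markers summed to 81.0 to 96.7 CPM in control, 192 to 562 CPM in vehicle and 190 to 571 CPM in hAAM livers, and 7 of 9 rose in each injured group. Of 8 stellate cell markers 4 rose in each injured group, and of 7 endothelial markers 4 rose in vehicle and 3 in hAAM livers. Of 7 Kupffer cell markers 1 rose in each, and none of 6 neutrophil or 6 cholangiocyte markers was called. Among all genes 15.0% were called higher and 14.8% lower in vehicle livers, and 10.7% and 9.96% in hAAM livers. Among single livers, control replicate 1, with the highest pericentral sum, was the highest control liver for 9 of 10 members, hAAM replicate 3 (3110 CPM) was the highest hAAM liver for 9 of 10, and vehicle replicate 3 (1630 CPM) was the highest vehicle liver for 8 of 10. Cyp2e1 alone made up 45.6% to 80.1% of the pericentral sum, and single markers did not all share its order. Of the 10 markers, 5 were highest in control replicate 1 and 5, Glul among them, in control replicate 3, while 4 were highest in vehicle replicate 3 and 4, again with Glul, in vehicle replicate 5. In hAAM livers 9 of 10 were highest in replicate 3. The summed hepatocyte markers were highest in the same 3 livers of their groups (108000, 115000 and 111000 CPM). Vehicle replicate 5 had 1180 CPM of pericentral markers and the lowest Ugt2b1 level. In whole liver, fewer cells of a type and less RNA per cell cannot be told apart, and the part of the cell make-up in the falls was not tested.

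**Figure D5:**
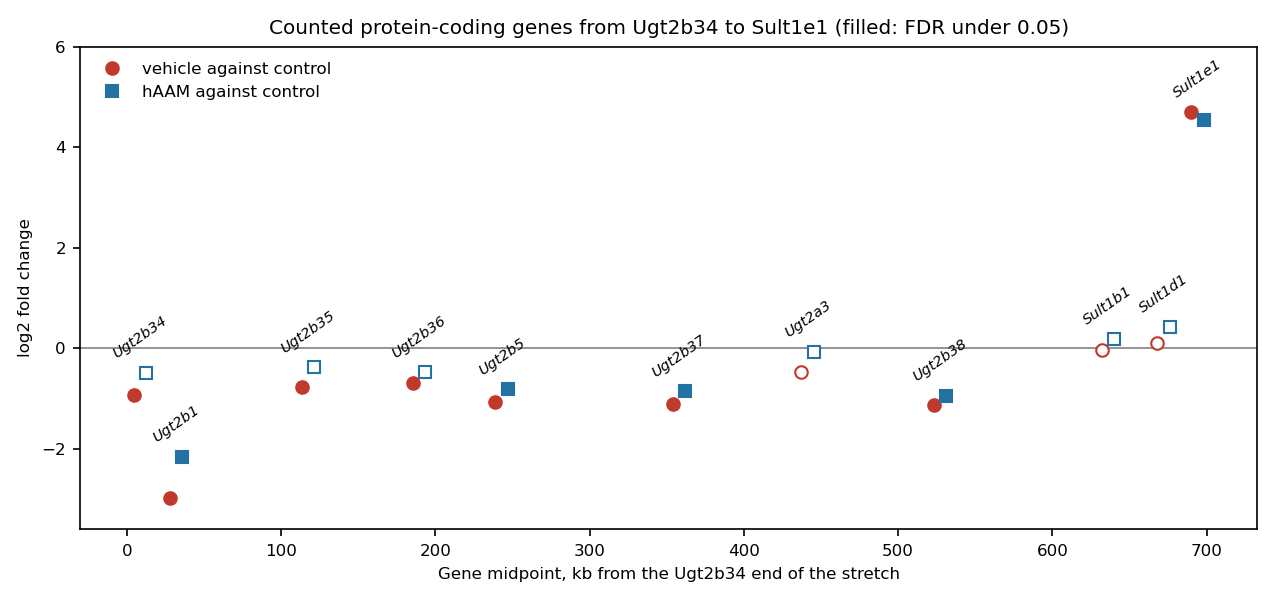
Log2 fold change against control of the counted protein-coding genes from Ugt2b34 to Sult1e1 on chromosome 5, by the distance of the gene's midpoint from the Ugt2b34 end of the stretch, in kb. Circles are vehicle and squares hAAM livers, filled where the FDR is under 0.05. The Ugt2b genes lie below 0 in both groups, Ugt2a3 is at -0.48 and -0.07, Sult1b1 at -0.03 and 0.19, Sult1d1 at 0.11 and 0.42, and Sult1e1 lies above 4.

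Of 51 other genes listed for the 2 pathways, 36 were counted and all 36 were tested. In vehicle livers 3 rose and 11 fell by edgeR, where 15.0% of all genes were called higher and 14.8% lower, and the median log2 change was -0.30. In hAAM livers 3 rose and 8 fell, where 10.7% were called higher and 9.96% lower, with a median of -0.30. Scaled by library size alone, the split was 7 higher and 7 lower in vehicle livers and 5 higher and 3 lower in hAAM livers. With that scaling 8637 of all 22581 genes were called higher and 1110 lower in vehicle livers. In hAAM livers 6559 were called higher and 781 lower. None of the 36 was called between hAAM and vehicle livers by edgeR or DESeq2, with 2 at an unadjusted p under 0.05.

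Among 12 other transferases, 5 fell in vehicle and 4 in hAAM livers and none rose, where 14.8% and 9.96% of all genes were called lower. Ugt2b38, which lies in the same stretch of chromosome 5 as the Ugt2b members, was at 91.8 ± 37.0 CPM in control, 41.9 ± 5.90 in vehicle and 48.0 ± 5.90 in hAAM livers (log2 -1.13, edgeR FDR 0.002, and -0.94, FDR 0.0108). Ugt2b37, also there, fell by 1.11 on the log2 scale in vehicle livers (FDR 0.00274) and by 0.86 in hAAM livers (FDR 0.0188), the latter not called without control replicate 1 or 3 or hAAM replicate 1 (FDR 0.0523 to 0.0768), without both near-identical livers (FDR 0.0527), with only control and hAAM livers fitted (FDR 0.0517) or with library size alone (-0.54, FDR 0.113). The Ugt1a genes share their last exons, so their counts may be incomplete or shared. Ugt1a9 was at 22.4 ± 10.9 CPM in control, 7.03 ± 3.05 in vehicle and 10.9 ± 7.38 in hAAM livers. It fell by 1.68 in vehicle livers (edgeR FDR 0.0206), a call lost without control replicate 1 (-1.27, FDR 0.102), and in hAAM livers the change was -1.04 (FDR 0.162), called without hAAM replicate 3 (-1.59, FDR 0.0297). Ugt1a5 fell in both injured groups (-1.08, FDR 0.00356, and -1.02, FDR 0.0102). Ugt1a1, the bilirubin transferase, was not called (-0.83, interval -1.78 to 0.13, and -0.61, interval -1.62 to 0.39), nor was Ugt1a6a, which acts on small phenols (-0.13, interval -0.46 to 0.20, and -0.30, interval -0.65 to 0.04). Its neighbor Ugt1a6b, named after its values were seen, was at 54.18 ± 6.33 CPM in control, 36.9 ± 6.86 in vehicle and 43.89 ± 6.00 in hAAM livers, and all vehicle livers lay below all control livers. It fell by 0.55 in vehicle livers (edgeR FDR 0.016), a call lost without control replicate 1 (-0.46, FDR 0.0728) and with library size alone (-0.21, FDR 0.187), and in hAAM livers the change was -0.30 (FDR 0.19).

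Of 7 genes for the supply of UDP-glucuronic acid and the removal of glucuronic acid, 2 rose (Pgm2 and Gusb) and 2 fell (Slc35d1 and Slc35d2) in each injured group. Among all genes 15.0% were called higher and 14.8% lower in vehicle livers, and 10.7% and 9.96% in hAAM livers. Ugp2, which makes UDP-glucose ahead of Ugdh, was at 133.8 ± 65.4 CPM in control, 142.4 ± 8.83 in vehicle and 161.5 ± 9.74 in hAAM livers and was not called (log2 0.09 and 0.27). Control replicate 1 was high at 209.2 CPM, and without it Ugp2 was called higher in vehicle (0.57, edgeR FDR 0.00324) and hAAM livers (0.75, FDR 0.00156). Without control replicate 2 or 3 its sign turned in vehicle livers (-0.12 and -0.08). Slc35d1, which carries UDP-glucuronic acid into the endoplasmic reticulum, fell by 0.42 in vehicle livers (FDR 0.0133) and by 0.41 in hAAM livers (FDR 0.0267). The vehicle call was lost without control replicate 3 (-0.37, FDR 0.0638) and the hAAM call without control replicate 1 or 3 or hAAM replicate 1 or 2 (-0.39 to -0.32, FDR 0.0639 to 0.106) or with only control and hAAM livers fitted (-0.40, FDR 0.0785). With library size alone both were lost (-0.07, FDR 0.492, and -0.11, FDR 0.324). Pgm2, a phosphoglucomutase, was at 5.44 ± 1.11 CPM in control, 13.4 ± 2.63 in vehicle and 10.46 ± 2.82 in hAAM livers. It rose in both (log2 1.30, FDR 0.002, and 0.94, FDR 0.0163), the latter not called without control replicate 2 or 3 (FDR 0.0512 to 0.0704). Pgm1, also listed and far more abundant, was at 142.7 CPM in control livers. It was not called (log2 -0.13, edgeR FDR 0.394, and -0.10, FDR 0.568). Gusb, the lysosomal enzyme that removes glucuronic acid, rose by 0.53 (FDR 0.00665) and 0.59 (FDR 0.00805).

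Of 7 other sulfotransferases, 1 rose in each injured group and 1 fell in vehicle livers. Among all genes 15.0% were called higher and 14.8% lower in vehicle livers, and 10.7% higher in hAAM livers. Sult2a8, a bile acid sulfotransferase of mouse liver, was at 426.3, 219.7 and 328.5 CPM in control livers, 30.9, 31.6, 120.1, 13.2 and 31.8 CPM in vehicle livers and 47.7, 53.5, 181.5 and 119.3 CPM in hAAM livers. All injured livers lay below all control livers, and vehicle replicate 3 and hAAM replicates 3 and 4 were the highest of them. It fell by 2.84 on the log2 scale in vehicle livers (SE 0.616, edgeR FDR 0.00563). Without vehicle replicate 3 and hAAM replicate 4 the change was -3.59 (FDR 0.00113). In hAAM livers the change was -1.69 (SE 0.647, FDR 0.0833), called without hAAM replicate 3 (-2.14, FDR 0.0423) or vehicle replicate 3 (-1.69, FDR 0.0252), or without both near-identical livers (-1.78, FDR 0.0393). Sult1e1, the estrogen sulfotransferase at the far end of the chromosome 5 stretch, had 2, 5 and 2 counts in the control livers, 17 to 142 counts in vehicle livers and 16 to 129 counts in hAAM livers. It rose in both injured groups (edgeR FDR 0.00374 and 0.00811), with summed, depth-scaled counts 27.6 times (95% exact counting interval 14.4 to 60.8) and 24.1 times (12.5 to 53.3) those of control. These intervals cover counting error only, and edgeR's intervals, which include the spread between livers, ran from 6.31-fold to 108-fold and from 5.47-fold to 99.3-fold.

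Of 10 genes for the supply of PAPS and sulfate, 3 fell in vehicle and 2 in hAAM livers, where 14.8% and 9.96% of all genes were called lower. Papss2, which makes PAPS, was at 131.0 ± 29.8 CPM in control, 69.9 ± 20.8 in vehicle and 92.0 ± 24.8 in hAAM livers. It fell by 0.91 in vehicle livers (edgeR FDR 0.0167), a call lost without control replicate 1 (-0.70, FDR 0.0852), and its change in hAAM livers was -0.51 (interval -1.08 to 0.06). Bpnt1, which breaks down the PAP left after sulfation, was at 58.9 ± 2.00, 38.6 ± 2.96 and 38.4 ± 2.04 CPM in control, vehicle and hAAM livers. It fell by 0.61 (SE 0.0721, FDR 2.35e-04) and by 0.62 (SE 0.076, FDR 5.35e-04), without overlap between control and injured livers.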

How the data were processed

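RNA of frozen mouse liver was sequenced as rRNA-depleted, directional, paired-end libraries. Per the study's methods and the submitters' processing notes, reads were trimmed with Cutadapt 4.6, aligned with STAR 2.7.1a to GRCm38 and counted per Ensembl gene with summarizeOverlaps. The counting mode and strand setting are not given in the sources used here, so overlapping and closely related genes may have exchanged reads. The table deposited by the authors holds unnormalized counts of 24187 genes, none totaling under 15 over the livers. Reads of the human cells were not counted separately. Groups came from the sample labels. The protocol names 14 libraries, and 12 are analysed here.

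Here, low-count genes were removed with filterByExpr, counts were scaled with TMM, and all 12 livers entered 1 quasi-likelihood fit without the robust option (R 4.3.3, edgeR 4.0.16), with two-sided tests and Benjamini-Hochberg FDR over 22581 genes. The test was also tried on simulated data, and the outcome is not reported here. DESeq2 1.42.0, other scalings and filters, the replicate numbers as a block, the 2 compared groups alone and leaving out livers were alternatives. log2 CPM carry a prior count of 2. RPKM used the union of exons of GENCODE for GRCm38, and coding sequences were compared with Biopython 1.88. The members and gene lists were chosen with earlier results of these data known. Besides all members, the text names up to 4 of the largest rises and up to 4 of the largest falls among other listed genes called in each injured group whose mean log2 CPM was 0 or more, and Ugt1a1, Ugt1a6a, Ugt1a9, Ugp2, Papss2 and Slc35d1. Outside this rule, Ugt1a6b and Pgm1 were named after their values were seen. Slc35d2 is named among the genes called, and Ugt2a3 and Sult1d1 as genes of the chromosome 5 stretch. Listed genes not counted are not analysed here.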

Additional observations from a re-analysis of the deposited data

Results flagged for a closer look

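In 50 groups of 4 or 5 livers, 1 liver stood far from the others for 3 genes, where chance alone flags about 1 in 20 such groups. Ugdh in hAAM livers was highest in replicate 1, at 130 CPM, with the other 3 livers at 90.3 to 93.6 CPM. Without that liver the Ugdh change of hAAM against vehicle livers was 0.19 on the log2 scale. Sult2a8 in vehicle livers was highest in replicate 3, at 120 CPM, with the other 4 livers at 13.2 to 31.8 CPM. Vehicle replicate 3 is the library that nearly equals hAAM replicate 4, in which Sult2a8 was at 119.3 CPM. Ugt1a6b in hAAM livers was highest in replicate 3, at 52.8 CPM, with the other 3 livers at 39.9 to 41.5 CPM.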

How the results depend on the processing

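The number of members called in vehicle against control livers was 4 with library size alone (Ugt2b1, Ugt2b5, Ugt2b34 and Ugt3a1) and 5 to 8 when single livers were left out, with 5 without control replicate 1. In hAAM against control livers it was 1 to 4 when single livers were left out, with 1, Ugt2b1, without control replicate 1 or hAAM replicate 2, and 2 with library size alone, with only control and hAAM livers fitted, or without both near-identical livers. The genes called lower among all genes changed as well. In vehicle livers they were 3339 of 22581 in the main fit, and 1110 with library size alone. In hAAM livers they were 2248 of 22581 in the main fit, and 781 with library size alone. They were 1320 of 21492 there with only control and hAAM livers fitted, and 1908 of 22477 without both near-identical livers. Other pathway genes called numbered 12 to 17 in vehicle livers and 6 to 12 in hAAM livers when single livers were left out, with 6 without control replicate 3, 7 without hAAM replicate 1 or 2, and 7 when only control and hAAM livers were fitted. Of all genes, 4666 of 22581 were called in hAAM livers in the main fit. These were 2419 of 23084 without control replicate 3, and 2799 of 22475 and 2942 of 22466 without hAAM replicate 1 and 2. They were 2729 of 21492 with only control and hAAM livers fitted. Between hAAM and vehicle livers the count of members and of other pathway genes called was 0 in every fit run. The cause of these shifts was not tested, except that fits without a control liver rest on 2 control livers. Replicate numbers were tried as a block: 10 same-numbered pairs had correlations of -0.548 to 0.423, 4 of them over 0.1, and 2 of 12 livers correlated best with their own number, so the livers share only a number. With the block 7 members were called in vehicle, 4 in hAAM and 0 in hAAM against vehicle livers, with Ugt2b36 lost in vehicle (-0.54, edgeR FDR 0.149) and Ugt2b34 added in hAAM livers (-0.44, FDR 0.0445), and Ugt1a9 in vehicle (FDR 0.0732) and Ugt2b37 in hAAM livers (FDR 0.0774) were lost. Of all 22581 genes, 2062 were called lower in vehicle and 1399 in hAAM livers with the block. Among the members, Ugt1a6b and the other genes named by the rule above, signs turned only for genes not called. With library size alone, which shifts the changes of all genes upward, they turned for Sult1a1 (0.15 in vehicle, 0.24 in hAAM livers), Sult1b1 (0.32) and Ugt1a6a (0.22) in vehicle livers, and with the block for Sult1b1 (0.02). Of all 36 other pathway genes, 12 had a positive change in each injured group in the main fit. With library size alone these were 18 in vehicle and 17 in hAAM livers. With single livers left out, log2 changes ran from -0.30 to 0.02 and -0.30 to 0.19 for Sult1a1 in vehicle and hAAM livers, from -0.22 to 0.23 and -0.11 to 0.45 for Sult1b1, from -0.12 to 0.57 for Ugp2 in vehicle livers, and, between hAAM and vehicle livers, from -0.11 to 0.35 for Sult1a1 and -0.08 to 0.37 for Sult1b1. The other members, Ugt1a6b and the other genes named by that rule kept their direction against control, as did the other members between hAAM and vehicle livers. Ugt2a3, Sult1d1, Slc35d2 and Pgm1 were not followed singly over these fits. The lowest member, Sult1b1, had 342 to 776 counts in each liver, and groups held 3 to 5 livers.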
